A study of Mus musculus with 8 samples.

Results

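Protein kinase A (PKA) is held inactive by regulatory subunits that bind its catalytic subunits, and cAMP, made by adenylyl cyclases, releases the catalytic subunits. A-kinase anchoring proteins (AKAPs) bind the regulatory subunits and fix the kinase at particular sites of the cell, often together with phosphatases, phosphodiesterases and other kinases. In macrophages, cAMP and PKA signalling is known for tempering the inflammatory response to bacterial products, and Akap12, also called gravin or SSeCKS, is a large scaffold that binds PKA, protein kinase C and calcineurin near the plasma membrane.

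Transcripts of 10 such genes were described, which is every listed gene among the 10639 genes of the expression table. They comprise 7 anchoring proteins (Akap12, Akap1, Akap8, Akap9, Akap10, Akap11 and Akap13), the PKA regulatory subunits Prkar1a and Prkar2a, and the catalytic subunit Prkaca. The genes were listed by symbol. Akap12 was selected on its measured FPKM, which was higher with LPS and anti-CD36 together than with LPS alone, so its values in the combination and LPS libraries are described here and not tested. The other 9 were listed for their roles. All 10 passed the filter on low values (2 or more libraries at 1 FPKM or above), which Akap12 met through the LPS and combination libraries.

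The cells were RAW264.7, a transformed mouse macrophage line labelled wild type, sequenced as RNA in 4 groups of 2 libraries. The groups were cells given LPS plus anti-CD36 antibodies, cells given LPS, the endotoxin of Gram-negative bacteria, cells given antibodies to the scavenger receptor CD36, and untreated cells. LPS alone was at 50 ng/mL and the antibodies alone at a dilution of 1:100, for 12 h. For the combination the labels state the same 12 h but leave out the doses. For untreated cells the labels give no time. There was no group with an antibody of another specificity, all groups were of 1 cell line, and the labels do not say whether the replicates were separate cultures, so the spread that the p-values rest on may be only technical.

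Levels are FPKM, fragments per kilobase of transcript scaled to the library, so that levels of different genes can be set side by side. The recovered depth was 47900000 to 71700000 reads per library. Replicates correlated across genes at an r of 0.968 in the anti-CD36 group to 0.997 in the LPS group. The share of summed FPKM in mitochondrial genes was 15.7% in replicate 1 of anti-CD36 and 3.28% to 6.62% in the other 7 libraries. Of the macrophage markers 9 of 10 were in the table, with a summed FPKM of 3634 to 5406 per library, and Mertk was not analysed here. The 23 markers of 6 other cell types (fibroblast, epithelial, endothelial, T, B and granulocyte) were not among the genes analysed. In bulk RNA, fewer cells with a transcript and less of it per cell cannot be told apart.

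Akap12 was nearly silent in untreated cells, low with LPS, and among the more abundant scaffolds when LPS and anti-CD36 were given together. It stood at 25.7 and 28.8 FPKM with LPS plus anti-CD36, at 1.95 and 1.98 FPKM with LPS, at 0.152 and 0.0932 FPKM with anti-CD36, and at 0.139 and 0.292 FPKM in untreated cells. Both combination libraries lay above both LPS libraries, and both LPS libraries above the other 4, while the anti-CD36 and untreated ranges overlapped. The gene lies on chromosome 10, at chr10:4266380-4359470 on the plus strand of GRCm38, is protein-coding and has 3 annotated transcripts (ENSMUSG00000038587.9).

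The reads behind these levels were recovered from the FPKM steps. A counted length of 6728 bases, the best of those scanned, gave nearly whole reads in the libraries outside the combination. The combination libraries, with more reads, were not part of that check. The annotated exons span 6461 bases, and the reason for the gap was not tested. Akap12 held 10557 and 10349 reads with LPS plus anti-CD36, 804 and 845 with LPS, 49 and 36 with anti-CD36, and 52 and 141 in untreated cells. Without LPS the levels therefore rest on 36 to 141 reads. In untreated cells the 95% Poisson intervals, which cover counting error only, were 0.104 to 0.182 FPKM for replicate 1 and 0.246 to 0.345 FPKM for replicate 2. These do not overlap, so the untreated replicates differed by more than counting error. The anti-CD36 intervals were 0.112 to 0.201 FPKM for replicate 1 and 0.0653 to 0.129 FPKM for replicate 2. By rank among the 10639 genes, Akap12 was at places 1914 and 1692 with LPS plus anti-CD36, 8684 and 8793 with LPS, 10577 and 10613 with anti-CD36, and 10608 and 10538 in untreated cells.

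**Figure D1:**
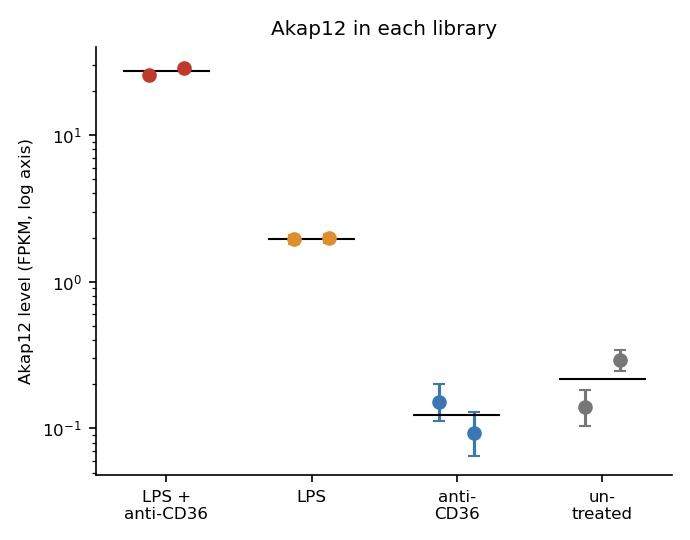
Akap12 level in FPKM (log axis) in each of the 8 libraries, with points for replicates, error bars for the 95% Poisson counting interval and black lines for group means. The combination libraries stand at 25.7 and 28.8 FPKM, above LPS at 1.95 and 1.98 FPKM, while the anti-CD36 and untreated libraries share the lowest range.

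With LPS alone, Akap12 averaged 1.96 ± 0.0213 FPKM, against 0.216 ± 0.108 FPKM in untreated cells (SD, n = 2 each), a ratio of 9.10. The ratio rests on the untreated libraries, at 14.1 without untreated replicate 2 and 6.71 without untreated replicate 1. The difference on the log2(FPKM + 1) scale, used for every difference here, was 1.29 ± 0.11 (SE). It was not tested, since the LPS libraries entered the contrast that chose the gene and helped it past the filter. Over the 19 alternative settings it was 0.42 to 2.75 on the log2 scale of each setting. A pseudocount of 5 gave the lowest value and a pseudocount of 0.1 the highest.

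Anti-CD36 alone left Akap12 at 0.123 ± 0.0416 FPKM, against 0.216 ± 0.108 FPKM in untreated cells (SD, n = 2 each). The difference of -0.11 ± 0.11 was not called (SE, limma adjusted p = 0.53). At such low levels, adding 1 FPKM before the log shrinks a difference, here from means 1.76-fold higher in untreated cells. The test could therefore hardly call a change of that size, and no conclusion is drawn from it. Added to LPS, the antibodies went with 27.2 ± 2.19 FPKM, against 1.96 ± 0.0213 FPKM with LPS alone (SD, n = 2 each), a ratio of 13.9 and a log2 difference of 3.25 ± 0.11 (SE, not tested). Against anti-CD36 alone the combination stood 222-fold higher, by 4.65 ± 0.11 on the log2 scale (SE, not tested). The interaction, which is the antibody difference under LPS minus the antibody difference without it, was 3.36 ± 0.15 (SE, not tested). In the fit over all 10289 genes Akap12 was the gene called in the interaction, 0.00972% of the genes tested, and this restates the choice of the gene.

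Among the 7 anchoring proteins, Akap12 had the largest share of the summed FPKM in the combination libraries. It held 46.5% and 49.5% of it with LPS plus anti-CD36, 5.11% and 4.77% with LPS, 0.361% and 0.235% with anti-CD36, and 0.266% and 0.533% in untreated cells. The sum itself was 55.1 and 58.0 FPKM with LPS plus anti-CD36, 38.1 and 41.4 FPKM with LPS, 42.1 and 39.7 FPKM with anti-CD36, and 52.1 and 54.9 FPKM in untreated cells. The combination and untreated sums were thus close, with different genes making them up. Without Akap12 the sum was 29.5 and 29.3 FPKM with LPS plus anti-CD36, 36.1 and 39.5 FPKM with LPS, 42.0 and 39.6 FPKM with anti-CD36, and 52.0 and 54.6 FPKM in untreated cells. The other 6 scaffolds together were lowest in the combination and highest in untreated cells. The median FPKM over all genes was also lower in the combination, at 6.87 and 7.01, than in untreated cells, at 8.51 and 8.64. The part of that shift in these sums was not tested.

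**Figure D2:**
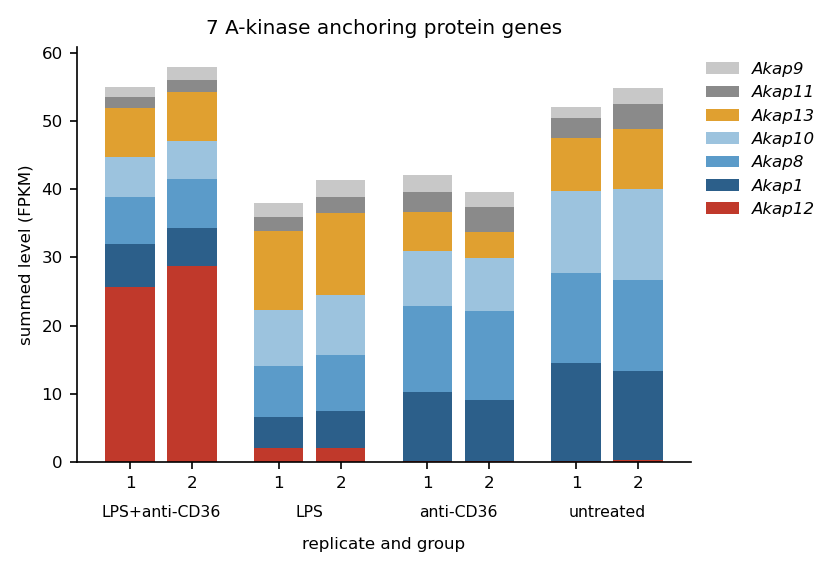
Summed level in FPKM of the 7 anchoring protein genes in each library, stacked by gene. Akap12 fills 46.5% and 49.5% of the 2 combination bars and at most 5.11% of any other bar.

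Under LPS the scaffolds and subunits were mostly lower. Of the 9 genes other than Akap12, 1 was called higher (Akap13) and 6 lower (Akap1, Akap8, Akap10, Akap11, Prkar2a and Prkaca), while Akap9 and Prkar1a were not called. Of all tested genes, 54.6% were called in this comparison, 17% higher and 37.5% lower. The 7 of 9 called stand beside that share as a description. Their median difference was -0.53, against -0.19 over all tested genes. Scaling matters here, since size factors took the median of all genes to 0.0043 and the share of higher genes among those called from 31.2% to 49.3%. Under size factors 6 of the 9 genes were called, 1 higher and 5 lower, where 5381 of all tested genes were called, against 5614 in the main fit.

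Among the scaffolds, Akap1, which anchors PKA at the outer mitochondrial membrane, differed most after Akap12. It stood at 6.33 and 5.54 FPKM with LPS plus anti-CD36, at 4.54 and 5.43 FPKM with LPS, at 10.1 and 9.03 FPKM with anti-CD36, and at 14.4 and 13.1 FPKM in untreated cells. The group ranges did not overlap, with untreated cells highest and LPS lowest. It was lower with LPS than in untreated cells, by -1.30 ± 0.13 (SE, limma adjusted p = 0.00015), a call kept under all 19 alternatives. Under anti-CD36 alone it was lower by -0.48 (limma adjusted p = 0.046), and 14 of 19 alternatives lost that call. Added to LPS the antibodies gave 0.21 (limma adjusted p = 0.41), which was not called.

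Akap8, a nuclear scaffold bound to chromatin and the nuclear matrix, stood at 6.92 and 7.20 FPKM with LPS plus anti-CD36, at 7.56 and 8.31 FPKM with LPS, at 12.6 and 13.1 FPKM with anti-CD36, and at 13.2 in both untreated libraries. The libraries with LPS were all lower than those without it, and anti-CD36 lay just under untreated cells. The LPS difference from untreated cells was -0.67 (limma adjusted p = 0.0010), and the combination was lower than anti-CD36 by -0.78 (limma adjusted p = 0.00062). Both calls were kept under all 19 alternatives, and neither antibody comparison was called for this gene.

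Akap10, an anchoring protein that binds both types of regulatory subunit, stood at 5.86 and 5.67 FPKM with LPS plus anti-CD36, at 8.28 and 8.75 FPKM with LPS, at 8.05 and 7.82 FPKM with anti-CD36, and at 12.1 and 13.4 FPKM in untreated cells. No ranges overlapped, and each single treatment stood between the combination and untreated cells. Against untreated cells it was lower with LPS, by -0.53 (limma adjusted p = 0.0033), and with anti-CD36, by -0.62 (limma adjusted p = 0.016). The combination differed from LPS by -0.49, which was not called (limma adjusted p = 0.060), and from anti-CD36 by -0.40 (limma adjusted p = 0.014). The interaction for Akap10 was 0.13 ± 0.14 (SE, limma adjusted p = 0.72). The anti-CD36 call was lost without either untreated library, and the call of the combination against anti-CD36 in 6 of 19 alternatives, among them the fits without either combination library.

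Akap11, a scaffold that also binds glycogen synthase kinase 3, stood at 1.55 and 1.69 FPKM with LPS plus anti-CD36, at 2.11 and 2.45 FPKM with LPS, at 3.02 and 3.64 FPKM with anti-CD36, and at 2.95 and 3.72 FPKM in untreated cells. The anti-CD36 and untreated ranges overlapped, both above LPS, with the combination lowest. The LPS difference was -0.40 (limma adjusted p = 0.033), a call lost in 8 of 18 alternatives, among them the fits without untreated replicate 2 or without either LPS or combination library. Leaving out a combination library kept the difference at -0.40, since those libraries enter that comparison only through the shared spread. The combination was lower than anti-CD36 by -0.72 (limma adjusted p = 0.0033), which all 18 alternatives kept.

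Akap9, the large scaffold of the centrosome and Golgi, was not called in any comparison. It stood at 1.61 and 1.99 FPKM with LPS plus anti-CD36, at 2.08 and 2.51 FPKM with LPS, at 2.47 and 2.27 FPKM with anti-CD36, and at 1.55 and 2.32 FPKM in untreated cells. The untreated replicates spanned much of this range and overlapped those of the LPS, anti-CD36 and combination groups. LPS gave 0.18 (limma adjusted p = 0.34) and anti-CD36 0.21 (limma adjusted p = 0.38). With the length trend described for anti-CD36 removed, Akap9 was called higher with LPS (0.36, limma adjusted p = 0.016) and with anti-CD36 (0.59, limma adjusted p = 0.021).

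Akap13, a large scaffold known from heart muscle, went the other way from most scaffolds under LPS. It stood at 7.20 and 7.19 FPKM with LPS plus anti-CD36, at 11.5 and 12.0 FPKM with LPS, at 5.69 and 3.75 FPKM with anti-CD36, and at 7.77 and 8.78 FPKM in untreated cells. LPS was highest and anti-CD36 lowest, with no overlap between any groups. The LPS difference was 0.46 ± 0.16 (SE, limma adjusted p = 0.044). That call was lost in 9 of 19 alternatives, among them the fits without any 1 of the untreated, LPS or combination libraries, and with mitochondrial genes left out (0.26, limma adjusted p = 0.30). The combination was higher than anti-CD36 by 0.54 (limma adjusted p = 0.029) and lower than LPS by -0.64, which was not called (limma adjusted p = 0.095). The first of these was lost without any 1 of the LPS or combination libraries or anti-CD36 replicate 2. Libraries outside a comparison enter it only through the shared spread. The LPS difference thus stayed at 0.46 without a combination library, and the 0.54 stayed without an LPS library.

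Of the PKA subunits, the catalytic subunit Prkaca and the type II regulatory subunit Prkar2a were lower with LPS, while the type I regulatory subunit Prkar1a was not called. Prkaca stood at 21.9 and 22.4 FPKM with LPS plus anti-CD36, at 19.2 and 19.9 FPKM with LPS, at 44.5 and 33.3 FPKM with anti-CD36, and at 42.0 and 42.8 FPKM in untreated cells. The 4 libraries with LPS were all below the 4 without it, and the anti-CD36 replicates lay on both sides of the untreated ones. The LPS difference was -1.08 (limma adjusted p = 0.00064), and the combination was lower than anti-CD36 by -0.77 (limma adjusted p = 0.0037). Both were kept under all 19 alternatives.

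Prkar2a stood at 11.0 and 12.6 FPKM with LPS plus anti-CD36, at 13.0 and 13.5 FPKM with LPS, at 18.4 and 17.3 FPKM with anti-CD36, and at 24.2 and 26.7 FPKM in untreated cells. No ranges overlapped, with untreated cells highest, followed by anti-CD36, LPS and the combination. The LPS difference was -0.89 (limma adjusted p = 0.00051) and the combination was lower than anti-CD36 by -0.56 (limma adjusted p = 0.0054), both under all 19 alternatives. The anti-CD36 difference was -0.49 (limma adjusted p = 0.033), which 10 of 19 alternatives lost.

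Prkar1a was the most abundant of the 10 genes in every library. It stood at 87.4 and 97.2 FPKM with LPS plus anti-CD36, at 79.7 and 80.6 FPKM with LPS, at 82.7 and 83.8 FPKM with anti-CD36, and at 99.3 and 92.8 FPKM in untreated cells. The combination and untreated ranges overlapped, and both lay above the single treatments. The LPS difference was -0.26 (limma adjusted p = 0.093) and the anti-CD36 difference -0.20 (limma adjusted p = 0.27). The LPS difference was called lower without either anti-CD36 library (limma adjusted p = 0.038 and 0.036), in the fit of only the LPS and untreated groups (limma adjusted p = 0.034) and after dropping mitochondrial genes (-0.47, limma adjusted p = 0.014). It was -0.02 with size factors (limma adjusted p = 0.91).

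The balance of subunits differed with LPS. The FPKM of Prkar1a over that of Prkar2a was 7.98 and 7.69 with LPS plus anti-CD36, 6.15 and 5.98 with LPS, 4.50 and 4.85 with anti-CD36, and 4.10 and 3.48 in untreated cells. No groups overlapped in this ratio. The summed regulatory subunits (Prkar1a, Prkar2a and Prkar2b) over the summed catalytic ones (Prkaca and Prkacb) gave 3.55 and 3.71 with LPS plus anti-CD36, 3.49 and 3.37 with LPS, 2.03 and 2.60 with anti-CD36, and 2.43 and 2.28 in untreated cells. The 4 libraries with LPS lay above the 4 without it. These ratios are of transcripts within a library and were described without a test.

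**Figure D3:**
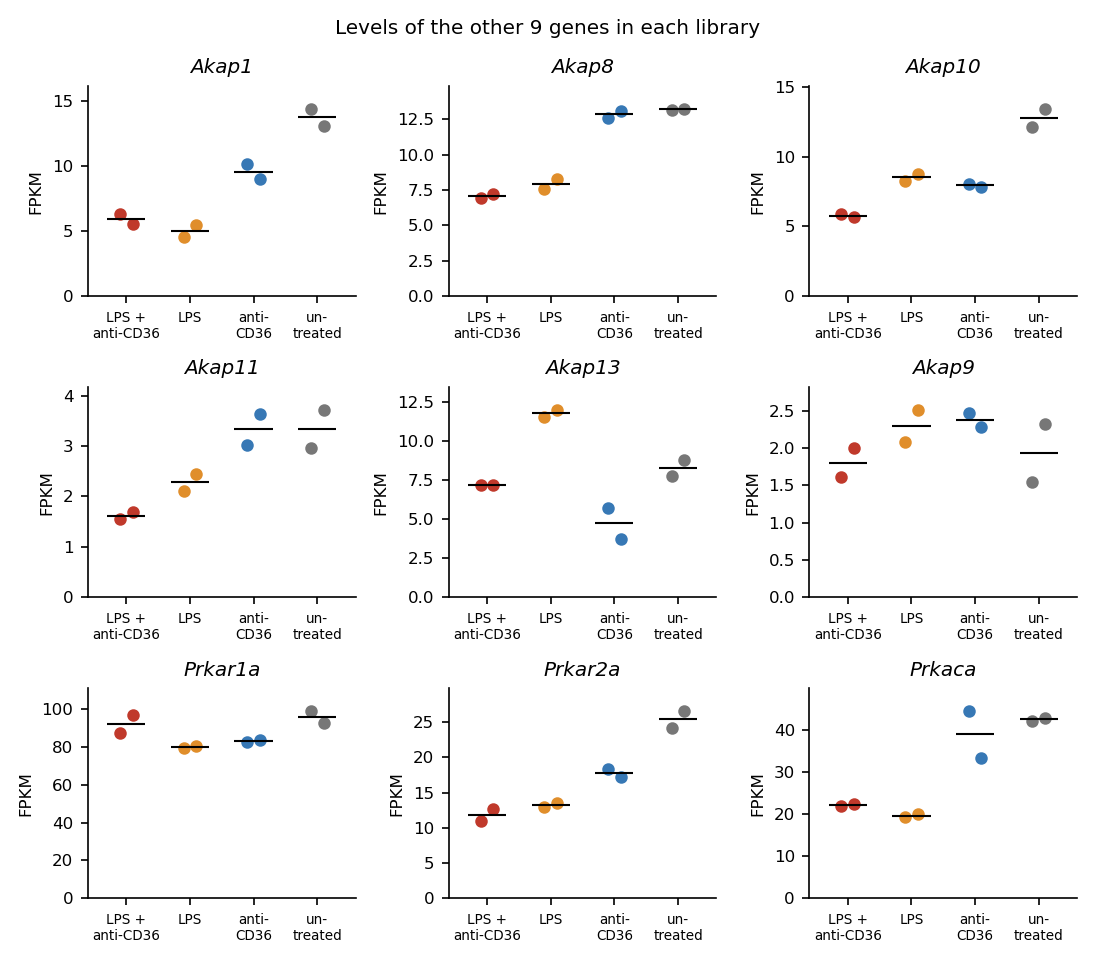
Level in FPKM of each of the other 9 genes in the 8 libraries, a panel per gene, with points for replicates and black lines for group means. Akap1, Akap8, Prkar2a and Prkaca are lower in the 4 libraries with LPS, Akap13 is highest with LPS alone, and Prkar1a lies between 79.7 and 99.3 FPKM.

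Anti-CD36 alone went with 4 of the 10 genes called lower (Akap1, Akap10, Akap13 and Prkar2a) and 0 higher. Akap12, counted among the 10, could hardly be called at its low level. Of all tested genes 13.7% were called, 3.04% higher and 10.6% lower. Akap13 had the largest of these differences, at -0.72 (limma adjusted p = 0.032). Leaving out an LPS or combination library kept these differences and changed only the shared estimate of the spread and the adjusted p. These calls changed with the libraries in the fit. Akap1, Akap13 and Prkar2a lost them without any 1 of the untreated, LPS or combination libraries, and leaving out either untreated library left 0 of the 10 called. A fit on the anti-CD36 and untreated libraries alone also called 0 of the 10, and the share of all genes called in that fit is not given here. Prkaca, with anti-CD36 replicates at 44.5 and 33.3 FPKM, was called lower without anti-CD36 replicate 1 (-0.34, limma adjusted p = 0.029) and stood at 0.07 without replicate 2. Replicate 1 is the library with 15.7% mitochondrial FPKM, and the part of that in these results was not tested.

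In both antibody comparisons the difference of a gene went with its length. Across 10034 genes, which are not independent replicates and share the libraries, Spearman's rank correlation between exon length and the difference was -0.445 for anti-CD36 against untreated cells and -0.476 for the combination against LPS, and -0.164 for LPS against untreated cells. Akap13 has 20914 exonic bases, against a median of 4335.5 among tested genes, and Akap9 has 21350. With the length trend removed, Akap13 stood at -0.34 for anti-CD36 (limma adjusted p = 0.13) and at -0.26 for the combination against LPS (limma adjusted p = 0.34). Akap10, of 6451 bases, stayed called for anti-CD36 at -0.44 (limma adjusted p = 0.031). Size factors took the share of higher genes among those called for anti-CD36 from 22.3% to 42.3%, with 1 of the 10 genes called. Over all tested genes 1013 were called in that fit, against 1405 in the main fit.

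Beyond Akap12, adding anti-CD36 to LPS changed 0 of the other 9 genes by limma at an adjusted p under 0.05, where 1.78% of all tested genes were called, 0.36% higher and 1.42% lower. At an unadjusted p under 0.05 limma gave 3 of the 9, beside 19.5% of all tested genes. For each of the 9 the combination and LPS ranges did not overlap, and 64.1% of all tested genes also did not overlap. The lowest adjusted p values belonged to Akap10 and Akap13. Both were called lower in a fit of the combination and LPS libraries alone, where Akap11 was called lower as well. The share of all genes called in that fit is not given here, so these calls are only described. In the interaction 0 of the 9 were called by limma, where 0.00972% of all tested genes were called. There 2 of the 9 had an unadjusted p under 0.05, beside 13.6% of all tested genes.

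With anti-CD36 present in both groups, adding LPS gave 1 of the 9 genes called higher (Akap13) and 6 lower (Akap1, Akap8, Akap10, Akap11, Prkar2a and Prkaca). Of all tested genes 47.1% were called, 15.4% higher and 31.7% lower. All 7 are also named above for LPS without the antibodies, each with the same sign. With 54.6% of all tested genes called in the comparison without antibodies and 47.1% in this one, shared calls can be common. Their share over all genes is not given here, so the agreement is only described. Those comparisons have no library in common, though they share the estimate of the spread. Akap1 was lower by -0.61 (limma adjusted p = 0.0061), a call lost without combination replicate 2. Akap9 and Prkar1a were again not called.

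**Figure D4:**
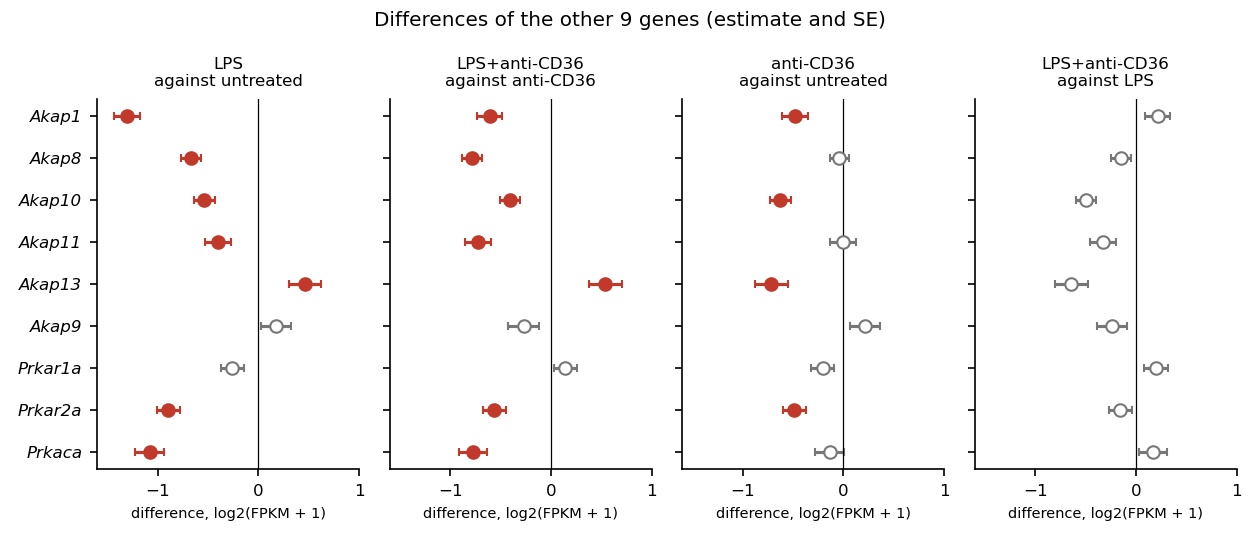
Difference on the log2(FPKM + 1) scale of the other 9 genes in 4 comparisons, a panel each, with bars for the SE and filled points for a limma adjusted p under 0.05. The values lie between -1.30 (Akap1 with LPS) and 0.54 (Akap13 in the combination against anti-CD36), and the combination against LPS has no filled point.

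The promoter windows of Akap13, Prkar1a and Prkaca are shown because these genes were higher, not called and lower with LPS. They are RefSeq windows from 250 bases before to 50 after the start in GRCm38.p6, which matched 9 of the 10 genes by symbol (no entry for Akap12). Capitals mark matches, on either strand, to the cAMP response element (TGACGTCA), its short form (TGACG), the NF-kB motif (3 G, 2 of any base, 3 T and 2 C) or the AP-1 motif (TGANTCA). The first is chr7:75455284-75455583, the second chr11:109650699-109650998 and the third chr8:83972728-83973027, all on the plus strand. Prkar1a and Prkaca have further windows that are not shown. Some of those of Prkar1a lack the full cAMP response element, and the other Prkaca window, chr8:83976633-83976932, has no match to these motifs.
Akap13: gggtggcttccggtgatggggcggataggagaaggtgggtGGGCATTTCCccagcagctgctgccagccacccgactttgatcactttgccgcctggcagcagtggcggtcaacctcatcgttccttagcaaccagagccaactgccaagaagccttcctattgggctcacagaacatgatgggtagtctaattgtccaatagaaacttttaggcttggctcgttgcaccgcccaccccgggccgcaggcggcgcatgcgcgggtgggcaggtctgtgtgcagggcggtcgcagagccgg
Prkar1a: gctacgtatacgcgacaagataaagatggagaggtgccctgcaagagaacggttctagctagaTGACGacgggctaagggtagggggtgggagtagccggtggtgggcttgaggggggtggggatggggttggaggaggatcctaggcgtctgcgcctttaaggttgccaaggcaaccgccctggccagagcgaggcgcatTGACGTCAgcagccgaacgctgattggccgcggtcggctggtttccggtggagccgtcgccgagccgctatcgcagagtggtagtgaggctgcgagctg
Prkaca: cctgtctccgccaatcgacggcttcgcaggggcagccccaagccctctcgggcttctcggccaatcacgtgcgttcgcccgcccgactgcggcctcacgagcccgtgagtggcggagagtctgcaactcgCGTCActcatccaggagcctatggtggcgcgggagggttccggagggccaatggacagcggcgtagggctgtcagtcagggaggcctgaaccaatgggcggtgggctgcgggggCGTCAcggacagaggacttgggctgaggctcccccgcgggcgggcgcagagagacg

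A full cAMP response element was present in 1.79% of 32851 windows of 27025 genes. It was in 2 of the 18 windows of these 9 genes, both of Prkar1a, at 49 bases before the start in the window shown. These 2 windows overlap and hold the same site. The short form, which the full element contains on both strands, was in 20.8% of all windows and in 6 of the 18, from 4 genes. In Prkaca it stood 120 and 6 bases before the start. The NF-kB motif was in 1.63% of windows and in 1 of the 18, of Akap13, 210 bases before the start. The AP-1 motif was in 7.81% of windows and in 3 of the 18, from Akap1 and Akap11. The Akap1 windows among these overlap and hold the same site. The GC box (GGGCGG), which was not put in capitals, was in 35.7% of windows and in 12 of the 18, from 7 genes. Overlapping windows also share short-form matches in Prkar1a and GC box matches in Prkar1a and Akap1, so counts of windows are not counts of sites. A match is a run of letters and was not tested for binding.

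The rest of the cAMP pathway was described from 11 lists. Among PKA subunits and inhibitors, which include the 3 subunits above, 5 of 7 tested genes were lower with LPS and 0 higher, beside 37.5% lower and 17% higher among all tested genes. The inhibitor Pkig stood at 9.41 and 8.84 FPKM with LPS, against 20.8 and 19.3 FPKM in untreated cells (-1.05, limma adjusted p = 0.00037). Of 12 other proteins reported to anchor PKA, 1 was higher and 6 lower with LPS, so 7 of 12 were called beside 54.6% of all genes. Ezr, the membrane and cytoskeleton linker ezrin, stood at 12.3 and 11.3 FPKM with LPS, against 29.6 and 32.1 FPKM in untreated cells (-1.32, limma adjusted p = 0.00095). With anti-CD36 added to LPS, 0 of these 19 genes were called, beside 1.78% of all tested genes.

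Upstream of PKA, the Gs-coupled receptors, which raise cAMP, were mostly higher with LPS. Of 6 tested, 5 were higher and 1 lower, beside 17% higher and 37.5% lower among all genes, with a median difference of 1.76, against -0.19 over all genes. Calcrl, the calcitonin receptor-like receptor, stood at 89.3 and 98.5 FPKM with LPS, against 10.3 and 13.3 FPKM in untreated cells (2.90, limma adjusted p = 1.8e-05). The adenosine receptor Adora2a followed the order of Akap12, at 6.003 and 5.91 FPKM with LPS plus anti-CD36, and at 2.90 and 3.14 FPKM with LPS. It was at 0.170 and 0.0797 FPKM with anti-CD36, and at 0.375 and 0.255 FPKM in untreated cells. Adora2a thus passed the filter on low values only through libraries with LPS, and its LPS call, 1 of the 5, is not independent of that filter. With anti-CD36 added to LPS, 1 of the 6 receptors was called higher and 1 lower, beside 0.36% higher and 1.42% lower among all tested genes. Adora2a was the higher one (0.79 ± 0.10, SE, limma adjusted p = 0.020). In the same comparison the prostaglandin receptor Ptger4 was called lower, at 1.19 and 1.36 FPKM with LPS plus anti-CD36, against 2.18 and 2.30 FPKM with LPS (-0.51, limma adjusted p = 0.0496).

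Adenylyl cyclases and G protein alpha subunits gave 2 higher and 3 lower of 6 with LPS, beside 17% higher and 37.5% lower among all genes. The inhibitory subunits diverged, since Gnai3 was higher by 0.72 (limma adjusted p = 0.011) and Gnai2 lower by -0.81 (limma adjusted p = 0.0047). Cyclase Adcy9 was lower with anti-CD36 alone, at 1.18 and 0.899 FPKM, against 3.06 and 2.96 FPKM in untreated cells (-0.98, limma adjusted p = 0.011). Of 7 phosphodiesterases, which break down cAMP, 2 were higher and 2 lower with LPS, beside the same shares. Pde4b was at 4.65 and 4.80 FPKM with LPS, against 0.982 and 1.08 FPKM in untreated cells (1.496, limma adjusted p = 8.6e-05). Pde4a moved the opposite way, at 1.46 and 1.76 FPKM with LPS, against 7.17 and 8.01 FPKM in untreated cells (-1.72, limma adjusted p = 0.00025).

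Downstream, 7 of 11 tested genes known to be induced by cAMP were higher with LPS and 2 lower, beside 17% higher and 37.5% lower among all genes. Of these 7, Nr4a3 was at 0.0270 and 0.0512 FPKM in untreated cells and at 0.0279 and 0.00582 FPKM with anti-CD36. It passed the filter on low values only through libraries with LPS, so its call is not independent of that filter. The list shares Pde4b and Pde4d with the phosphodiesterases and Crem and Sik1 with the CREB family, so these lists are not separate counts. The nuclear receptor gene Nr4a1 stood at 14.05 and 18.1 FPKM with LPS, against 1.70 and 1.55 FPKM in untreated cells (2.69, limma adjusted p = 2.7e-05). With anti-CD36 added to LPS, 1 of the 11 was called higher, beside 0.36% of all tested genes. This was the immediate early gene Fos, at 13.6 and 10.3 FPKM with LPS plus anti-CD36, against 3.65 and 5.29 FPKM with LPS (1.25, limma adjusted p = 0.026). The CREB family and its coactivators gave 4 higher and 5 lower of 13 with LPS, beside 54.6% of all genes called in either direction, Crem being higher by 0.92 (limma adjusted p = 0.00052). The Epac branch, the PKA-independent route of cAMP, gave 1 higher and 2 lower of 4, beside the same share.

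Among partners of the scaffolds, protein kinase C, which Akap12 binds, gave 0 higher and 2 lower of 7 tested with LPS, and calcineurin and calmodulin, also partners of Akap12, 0 higher and 2 lower of 7, beside 54.6% of all genes called. With anti-CD36 alone protein kinase C had 0 higher and 2 lower, and calcineurin and calmodulin 1 higher and 0 lower, beside 13.7% of all genes. Neither list had a call with anti-CD36 added to LPS, where 1.78% of all tested genes were called. For the combination against anti-CD36, where 47.1% of all genes were called, protein kinase C had 1 higher and 2 lower and calcineurin and calmodulin 0 higher and 4 lower. Of 7 centrosome partners of Akap9, 6 were lower with LPS, beside 37.5% of all genes, and pericentrin, Pcnt, stood at 1.53 and 1.86 FPKM, against 8.08 and 9.21 FPKM in untreated cells (-1.84, limma adjusted p = 7.3e-05).

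**Figure D5:**
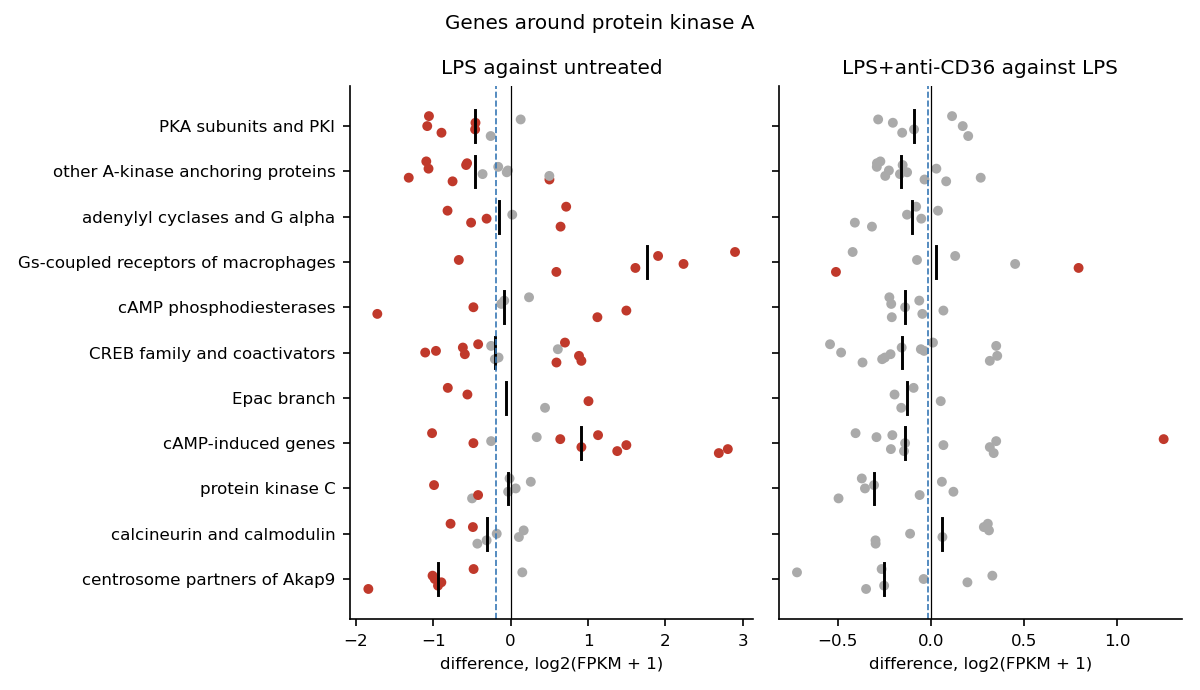
Difference on the log2(FPKM + 1) scale of each tested gene in the 11 lists, for LPS against untreated cells (left) and the combination against LPS (right, on its own axis range), with red points called, grey points not called, black ticks for list medians and the dashed line for the median of all genes. Gs-coupled receptors have 5 of 6 genes called higher with LPS, of which Adora2a passed the filter only through libraries with LPS. The centrosome partners have 6 of 7 lower, while the combination against LPS has few red points, with Fos at 1.25 farthest to the right.

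The genes nearest to Akap12 on chromosome 10 did not share its pattern. Upstream, Mthfd1l, a mitochondrial folate enzyme, stood at 24.4 and 23.6 FPKM with LPS plus anti-CD36, at 29.4 and 33.1 FPKM with LPS, at 54.2 and 58.9 FPKM with anti-CD36, and at 65.4 and 66.2 FPKM in untreated cells. It was lower with LPS by -1.05 (limma adjusted p = 0.00023), and it was lowest in the combination and highest in untreated cells. Downstream, Zbtb2, Rmnd1 and Armt1 were not called in any of the 5 comparisons, and Iyd and Plekhg1 were not analysed here.

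Across the 8 libraries, which fall into 4 groups, the genes whose log2 levels were most like Akap12 were Fos at a Pearson r of 0.98, Mcemp1 at 0.97, Serpinb9 at 0.97, Pear1 and Dnajb5 at 0.96, Ptprn and Slc11a1 at 0.96, and Zbtb32 at 0.96. They were taken from genes whose group means span at least 1 on the log2 scale, and the r values describe these libraries only. Mcemp1, a mast cell membrane protein gene, stood at 18.2 and 13.1 FPKM with LPS plus anti-CD36, at 4.14 and 3.50 FPKM with LPS, at 0.978 and 1.05 FPKM with anti-CD36, and at 0.685 and 0.569 FPKM in untreated cells. Slc11a1, the phagosomal metal transporter Nramp1, stood at 16.7 and 15.1 FPKM with LPS plus anti-CD36, at 10.4 and 11.1 FPKM with LPS, at 7.03 and 6.49 FPKM with anti-CD36, and at 8.34 and 7.93 FPKM in untreated cells. In both genes the combination was highest and LPS second, as for Akap12, with smaller ratios.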

How the data were processed

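RNA of 8 RAW264.7 libraries in 4 labelled groups of 2 was sequenced from Trizol extracts on standard Illumina libraries, per the labels' protocols. 10x Genomics is also named in the labels, yet each gene has 1 value per library, so the table was treated as bulk. The authors deposited FPKM values for 10639 genes, and no gene stood at 0 in any library. Alignment with HISAT2 2.0.5 is named per the submitters' processing notes, as are mm10 and hg38. The counting tool, the annotation, strand use, shared reads and what hg38 was used for are not given in the sources used here, so genes that overlap others on either strand are uncertain.

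FPKM values are not counts, so limma 3.58.1 in R 4.3.3 was fitted to log2(FPKM + 1), which understates changes of low genes. The fit used 4 group means over all 8 libraries with a trend on mean level, for the 10289 genes that reached 1 FPKM in 2 or more libraries. Calls were at a Benjamini-Hochberg adjusted p under 0.05 over all tested genes. The script was tested on simulated data. Depth was recovered from the FPKM steps of single reads, where 87.5% to 88.6% of low values came out whole within 0.02. Exon lengths and coordinates came from GENCODE M21 (GRCm38, the assembly of mm10), which 10366 symbols matched. Library columns left unused numbered 0. The recovered reads served only for depth, for Akap12 counts and for the lowest count of the other listed genes. For Akap9 and Akap13 they did not all come out whole, with gaps of up to 0.45 of a read.

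The genes and the pathway lists were chosen with earlier results of these data known, and 1 list is not reported here. Named were all 10 genes, up to 4 called genes per list and comparison, the 3 nearest protein-coding genes on each side of Akap12, and the 8 genes most like it by Pearson r. The alternatives were quantile normalization, scaling by median-ratio size factors, a pseudocount of 0.1 or 5, a minimum mean of 5 FPKM or no filter, mitochondrial genes left out, removal of the trend with gene length, no variance trend, only the groups compared, a replicate block and each library left out.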

Additional observations from a re-analysis of the deposited data

Results flagged for a closer look

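Akap1 differed in opposite directions with the antibodies in the presence and absence of LPS. It was at 6.33 and 5.54 FPKM with LPS plus anti-CD36, against 4.54 and 5.43 FPKM with LPS, and at 10.1 and 9.03 FPKM with anti-CD36, against 14.4 and 13.1 FPKM in untreated cells. The difference between the antibody effects was 0.70 ± 0.18 (SE), which was not called (limma adjusted p = 0.27). Without anti-CD36 replicate 1 it was 0.77 (limma adjusted p = 0.044).

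Prkar1a showed opposite directions both for the antibodies with and without LPS and for LPS with and without the antibodies. It was at 87.4 and 97.2 FPKM with LPS plus anti-CD36, at 79.7 and 80.6 FPKM with LPS, at 82.7 and 83.8 FPKM with anti-CD36, and at 99.3 and 92.8 FPKM in untreated cells. Either way the difference of effects was 0.40 ± 0.16 (SE), which was not called (limma adjusted p = 0.35).

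Akap12 met the same condition, with the antibodies at 3.25 under LPS and -0.11 without it, a difference of 3.36 that was not tested because the gene was chosen for its level in the combination. The anti-CD36 and untreated ranges of Akap12 overlapped.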

How the results depend on the processing

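The LPS difference of Akap12, which was not tested, was 1.20 to 1.38 with 1 library left out. Its difference for the combination against LPS was 3.73 with a pseudocount of 0.1, 2.21 with 5, 3.15 with mitochondrial genes left out and 3.37 with the length trend removed. Against anti-CD36 these 4 alternatives gave 6.95, 2.65, 4.50 and 4.85, and size factors 4.78. Its interaction was 4.20 and 2.23 with those pseudocounts and 3.27 to 3.45 with 1 library left out. Its anti-CD36 difference was 0.071 with the length trend removed. Changing the pseudocount changes the scale itself, and the cause of the other shifts was not tested.

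For anti-CD36 against untreated cells, 4 of the 10 genes were called, beside 13.7% of all tested genes. Over all genes the main fit called 1405, quantile normalization 1106, size factors 1013 and length trend removal 762. For the other alternatives the share of all genes called is not given here, so the counts below are only described. Quantile normalization left 2, size factors 1, length trend removal 2 (1 of them higher), the fit of only those groups 0 and the replicate block 1, and leaving out 1 library gave 0 to 5. For the combination against LPS, with 0 of 9, the fit of only those groups gave 3 and leaving out 1 library 0 to 2. The ranges with 1 library left out were 4 to 7 of 9 for the combination against anti-CD36 and 0 to 1 of 9 for the interaction. For LPS the count of 7 of 9 ranged from 5 to 8 over the alternatives.

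Labels number the replicates 1 and 2 in each group, but same-numbered libraries did not deviate in a common direction across the groups. Correlations of their deviations ran from -0.65 for anti-CD36 and untreated cells to 0.53 for the combination and untreated cells. The numbers were therefore not taken as pairs. With the replicate block 6 of the 9 genes were called for LPS, and the share of all genes called in that fit is not given here.

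Of 836 alternative values of the other 9 genes, 736 kept sign and call, 69 lost the call, 15 gained one and 16 changed sign, none of these 16 from a called value. For anti-CD36 these were Akap8 (0.051 with quantile normalization, 0.058 with size factors, 0.20 with the length trend removed), Akap11 (0.14, 0.077 and 0.28 in the same order, and -0.13 to 0.13 with 1 library left out, where it was above 0 without untreated replicate 2 or anti-CD36 replicate 1) and Prkaca (0.069 without anti-CD36 replicate 2, and -0.34 at the other end of that range). Length trend removal gave 0.034 for Akap8 and 0.15 for Akap9 in the combination against LPS. Akap9 was at -0.012 with LPS without untreated replicate 1, and at up to 0.37 with another library left out, and Prkar1a was at -0.065 in the combination against anti-CD36 with mitochondrial genes left out. The interaction of Akap13 was -0.0042 with a pseudocount of 5, -0.0033 without untreated replicate 2 and -0.17 without anti-CD36 replicate 2, with 0.32 at the other end of that range. Depth limits Akap12 without LPS, at 36 to 141 reads, while the other 9 genes had at least 995 reads in every library.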
